A study of Mus musculus with 12 samples.

Results

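The 3 libraries labelled Tbet-/- were compared with the 3 libraries labelled ST2-/-, all from mice with leukemia. These 6 of the 12 libraries of the series were taken by their labels, and the comparison covers the 13782 of 14259 genes that passed a filter on low counts. Each library holds RNA of cells sorted as regulatory T (Treg) cells from C57BL/6 bone marrow (BM) on day 14 after challenge with MLL-AF9 cells. These are cells of a myeloid leukemia that carries an MLL fusion oncogene. All mice of both groups carried this leukemia and had received an adoptive transfer of knockout Treg cells together with Foxp3- T cells. In the study's transfer model the recipients were lethally irradiated. The ST2-/- Treg cells came from mice that lack ST2 in all cells and had been crossed to a Foxp3-eGFP reporter, and the origin of the Tbet-/- mice is not given in the sources used here. By the study's methods the cells were sorted as CD4+CD25+ and CD127- for Tbet-/- Treg cells, but as CD4+CD25+ and eGFP+ for ST2-/- and WT Treg cells, and the MLL-AF9 cells carry eGFP as well. The gate and the genotype therefore cannot be told apart in this comparison. The other 6 libraries, 3 from WT Treg cells without tumor and 3 from WT Treg cells with tumor, are given for reference.

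ST2, encoded by Il1rl1, is the receptor of the alarmin IL-33 and marks Treg cells of non-lymphoid tissues and type 2 lymphocytes. Tbet, encoded by Tbx21, is the lineage transcription factor of type 1 T cells, and GATA3 is its counterpart in type 2 T cells, where it drives Il4, Il5 and Il13 and binds at Il1rl1. Treg cells depend on the transcription factor FOXP3 and can take up parts of either program. The comparison asks how the transcripts of cells sorted as Treg cells from leukemic BM differed between the Tbet-/- and the ST2-/- label.

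The libraries labelled ST2-/- held 13272943 to 13914504 counts and those labelled Tbet-/- held 13782061 to 16568031. Replicates were close, with a common biological coefficient of variation of 5.53%. Nothing in the labels says whether the 3 samples of a group came from separate mice, so the p-values measure the spread between these samples. At an adjusted p below 0.05, 26.4% of the tested genes were higher in the libraries labelled Tbet-/- and 27.4% were lower. Among them, with a log2 fold change above 1 or below -1, 712 genes (5.17%) were higher and 1004 genes (7.28%) were lower. Fold changes are those of the libraries labelled Tbet-/- over those labelled ST2-/-. Levels are counts-per-million (CPM) values after scaling by the trimmed mean of M-values (TMM), and fold changes carry their standard error (SE).

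T cell transcripts made up different shares of the libraries, which sets the scale on which any fold change is read. The 12 genes of the T cell list, among them the CD3 chains, Cd4 and Lck, held 0.0804% to 0.0831% of all counts under the ST2-/- label and 0.178% to 0.183% under the Tbet-/- label. All 12 were higher in the latter, with a median log2 fold change of 1.10, from 0.20 for Cd2, an adhesion receptor, to 1.83 for Cd247, the zeta chain of the T cell receptor complex. Values are therefore also given on a T cell gene scale, where the library size is the summed count of these 12 genes. That scale moved the median of all genes by -1.08, so that 1.76% of genes were called higher and 85.5% lower on it, and 99 and 7691 genes also passed the fold change limit. Counts of list members called are to be read against these shares of all tested genes, 26.4% higher and 27.4% lower on the TMM scale and 1.76% and 85.5% on the T cell gene scale. In bulk samples fewer cells of a type and less RNA per cell cannot be told apart.

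The 2 targeted genes were present in every library. Il1rl1 stood at 92.7, 86.6 and 90.3 CPM in the libraries labelled ST2-/- and at 258, 248 and 263 CPM in those labelled Tbet-/-. The groups did not overlap, and the level in the libraries labelled ST2-/- lay between no tumor WT (76.9 ± 2.10 CPM, SD, n = 3) and tumor WT (129 ± 6.51 CPM, SD, n = 3). Its log2 fold change was 1.51 ± 0.05 (SE, adjusted p = 1.5e-45) and 0.43 on the T cell gene scale. Tbx21 stood at 18.0, 18.6 and 23.6 CPM in the libraries labelled ST2-/- and at 16.1, 14.0 and 13.8 CPM in those labelled Tbet-/-. Here too the groups did not overlap, the log2 fold change was -0.45 ± 0.12 (adjusted p = 0.0012), and tumor WT held 38.7 ± 2.78 CPM (SD, n = 3). Neither transcript was lost under its own knockout label. Gene-level counts hold no record of the exons that were read, so a partial deletion could not be seen, and the libraries are named here by their labels.

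**Figure D1:**
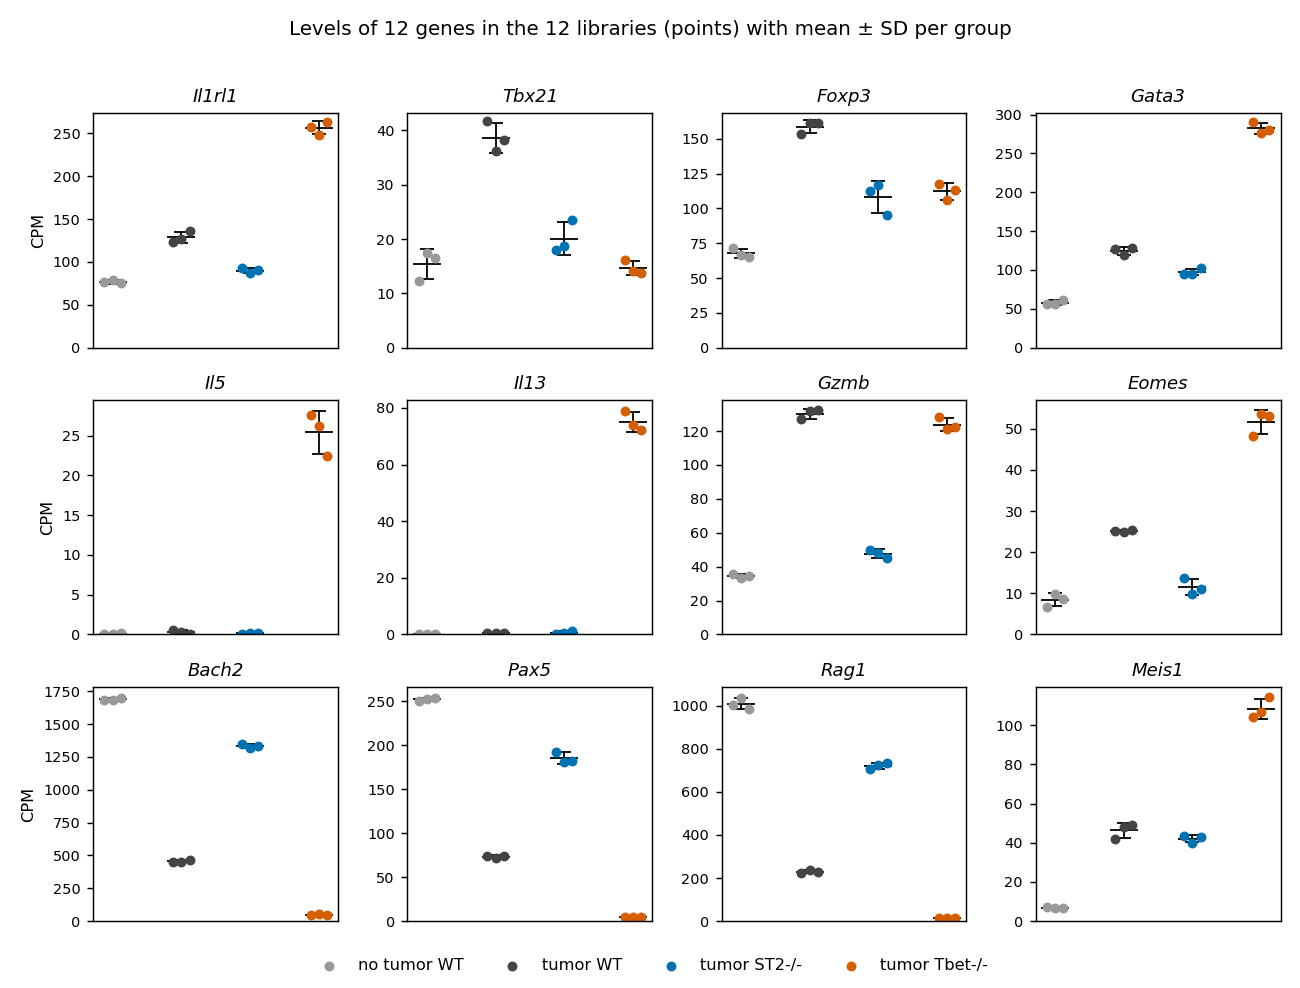
Levels in CPM (y axis, each from 0) of 12 genes in the 12 libraries; points are libraries, and the bar and whiskers are the mean and SD of the 3 libraries of a group. Il5 and Il13 are near 0 in every group but that labelled Tbet-/-, Bach2, Pax5 and Rag1 are lowest there, and Foxp3 overlaps between the libraries labelled ST2-/- and Tbet-/-.

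The proximal promoters of Il1rl1 and of the type 2 cytokine genes Il13 and Il5 are shown first, as the genes with which the comparison opens, with the words that GATA factors bind. Sequences are from RefSeq on GRCm38.p6 and run from 250 bases before to 50 bases after a transcription start. For Il1rl1, upstream and downstream refer only to the starts shown. The gene begins before both, at 40404864 on chromosome 1, and the window there is not shown. Capitals mark the word AGATAA on either strand and its variants AGATAG, with another last base, TGATAA, with another first base, and TGATAG, with both.
Il1rl1, upstream start, chr1:40429320-40429619, plus strand: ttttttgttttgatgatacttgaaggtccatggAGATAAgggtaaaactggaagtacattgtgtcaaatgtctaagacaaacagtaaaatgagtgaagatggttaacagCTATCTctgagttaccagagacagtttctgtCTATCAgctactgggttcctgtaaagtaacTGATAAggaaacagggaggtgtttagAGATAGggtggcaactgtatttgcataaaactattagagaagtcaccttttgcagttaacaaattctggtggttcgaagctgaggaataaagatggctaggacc
Il1rl1, downstream start, chr1:40439379-40439678, plus strand: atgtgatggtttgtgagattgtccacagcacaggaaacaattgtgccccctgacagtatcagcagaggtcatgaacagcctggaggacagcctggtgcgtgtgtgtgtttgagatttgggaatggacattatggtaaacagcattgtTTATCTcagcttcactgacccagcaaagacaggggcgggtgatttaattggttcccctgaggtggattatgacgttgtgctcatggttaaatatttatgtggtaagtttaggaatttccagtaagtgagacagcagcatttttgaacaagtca
Il13, chr11:53634653-53634952, minus strand: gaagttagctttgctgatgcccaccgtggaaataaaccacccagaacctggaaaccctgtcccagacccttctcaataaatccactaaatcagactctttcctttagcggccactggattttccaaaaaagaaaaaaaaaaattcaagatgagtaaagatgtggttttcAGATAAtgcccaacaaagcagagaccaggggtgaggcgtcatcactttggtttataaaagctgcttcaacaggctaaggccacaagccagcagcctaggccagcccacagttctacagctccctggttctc
Il5, chr11:53720544-53720843, plus strand: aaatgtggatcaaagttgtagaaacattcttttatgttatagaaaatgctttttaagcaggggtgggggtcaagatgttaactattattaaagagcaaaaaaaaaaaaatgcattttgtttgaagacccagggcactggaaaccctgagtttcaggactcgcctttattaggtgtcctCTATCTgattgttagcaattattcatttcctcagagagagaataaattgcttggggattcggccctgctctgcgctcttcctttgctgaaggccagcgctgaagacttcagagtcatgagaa
The upstream window of Il1rl1 held 5 such words and each of the other 3 windows held 1, as many promoters do. At least 1 word stood in 29.8% of the 32851 mouse promoters searched, and at least 5 stood in 0.0548% of them. No window held the T-box word TCACACCT, which 1.28% of promoters held, and no GATA word overlapped another. A match describes the letters only, and the counts do not show which start of Il1rl1 was used.

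Genes of the type 2 program were higher in the libraries labelled Tbet-/-. Of 14 tested members of the type 2 list 12 were higher and none lower (background 26.4% and 27.4%), with a median log2 fold change of 1.41, and 0.33 on the T cell gene scale, where 6 were higher and 3 lower. This list, like the others, was chosen with earlier results of these data known, so its counts are a description only. Il13, a cytokine of mucus production and tissue repair, had 2, 7 and 16 counts in the libraries labelled ST2-/- and 1262, 1252 and 1022 counts in those labelled Tbet-/-. The pooled counts give a ratio of 120 after scaling, with a 95% counting interval from 80.8 to 185. Il5, the growth factor of eosinophils, had 0, 3 and 2 counts against 441, 445 and 317, a ratio of 203 with a counting interval from 86.9 to 627. Both cytokines were near 0 in the WT groups as well, where the mean level was at most 0.54 CPM for Il13 and 0.29 CPM for Il5. These intervals cover counting error only.

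Il4, Il13 and Il5 lie in 1 cluster on chromosome 11 (53612460 to 53725103, GRCm38.p6), with Rad50, a DNA repair gene, between Il13 and Il5. Il4 had 10, 8 and 4 counts in the libraries labelled ST2-/- and 39, 31 and 47 in those labelled Tbet-/-, a ratio of 4.49 with a counting interval from 2.83 to 7.45 (adjusted p = 0.00081, and 0.067 on the T cell gene scale). Rad50, named after its values were seen, stood at 78.5 ± 2.22 against 90.1 ± 3.63 CPM (SD, n = 3), a log2 fold change of 0.20 ± 0.06 that turned to -0.88 on the T cell gene scale. The neighbours Il13 and Il5 thus differed by ratios of 120 and 203, and the gene between them by less than a log2 unit on either scale.

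Gata3, the transcription factor of this program, stood at 95.2, 94.3 and 102 CPM in the libraries labelled ST2-/- and at 289.9, 276 and 280.4 CPM in those labelled Tbet-/-. The groups did not overlap, with a log2 fold change of 1.54 ± 0.05 (adjusted p = 2.1e-46) and 0.46 on the T cell gene scale. Vdr, the vitamin D receptor, went from 2.53 ± 0.71 to 43.5 ± 0.53 CPM (SD, n = 3; log2 fold change 4.10 ± 0.18, adjusted p = 7.1e-35). Il9r, a receptor of IL-9, went from 5.64 ± 1.29 to 37.9 ± 0.21 CPM (2.74 ± 0.15, adjusted p = 1.7e-29). Il17rb, a subunit of the IL-25 receptor, had a log2 fold change of 1.28 ± 0.11 and 0.20 on the T cell gene scale. The signalling genes Il4ra (-0.01 ± 0.06) and Stat6 (-0.06 ± 0.05) were not called, though Stat6 was called at -0.13 (adjusted p = 0.018) without the first ST2-/- library. Members with the GATA words in their promoters were Gata3, Il4, Il5, Il13, Ccr8 and Il9r, 6 of 13 with a promoter in the table, against 2330 of 10325 tested genes.

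Retnla, a small secreted protein of type 2 inflammation made mostly by macrophages and eosinophils, is also in the type 2 list. It had 4, 1 and 0 counts in the libraries labelled ST2-/- and 541, 628 and 516 in those labelled Tbet-/-, a ratio of 285 with a counting interval from 122 to 878. Ccl24, a chemokine that attracts eosinophils, had no count in any library labelled ST2-/- and 84 to 98 in each labelled Tbet-/-, at least 26.4-fold higher against a floor of 3 counts per library. Eosinophil and basophil markers were higher too. In the mast cell and basophil list, 9 of 10 genes were higher and none lower, with a median log2 fold change of 1.03 that turned to -0.05 on the T cell gene scale. Epx, the peroxidase of eosinophil granules, stood at 152, 139.7 and 145 CPM in the libraries labelled ST2-/- and at 589, 570.4 and 576 CPM in those labelled Tbet-/- (log2 fold change 1.99 ± 0.04, and 0.91 on the T cell gene scale). Prg2, the major basic protein, went from 218 ± 12.2 to 617 ± 7.53 CPM (SD, n = 3; 1.5 ± 0.03 and 0.42). The summed level of the list was 459 to 483 CPM against 1330 to 1360 CPM, with 776 to 798 CPM in no tumor WT and 517 to 532 CPM in tumor WT. The part of these cells in the type 2 result was not tested.

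**Figure D2:**
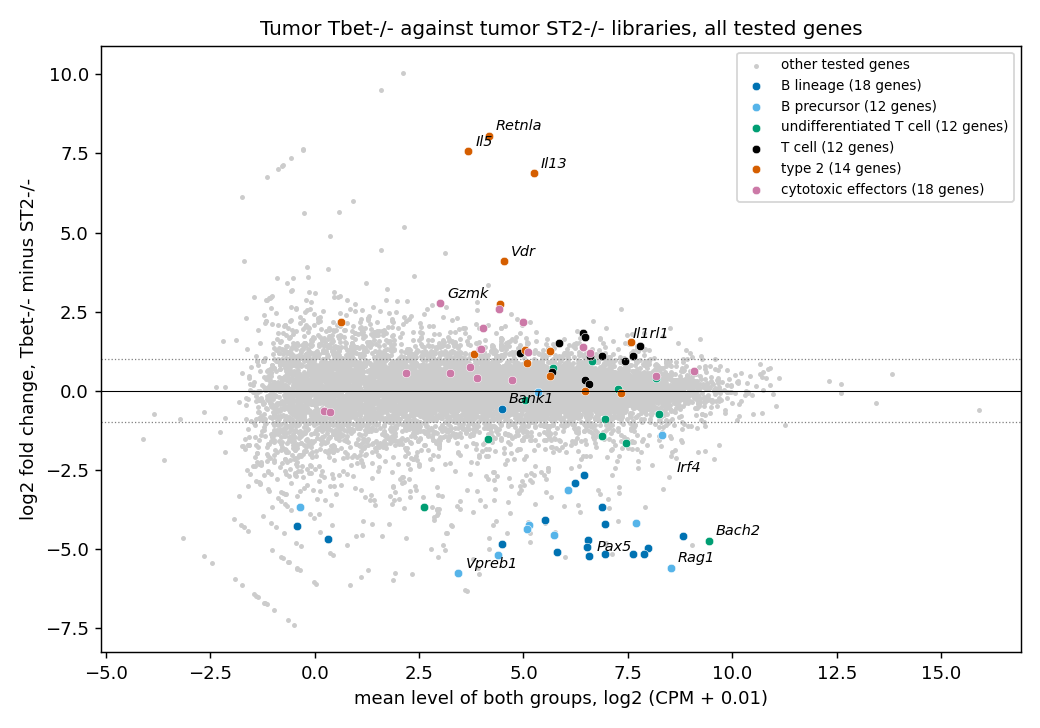
Log2 fold change of the libraries labelled Tbet-/- over those labelled ST2-/- on the TMM scale (y axis) against the mean level of both groups (x axis, log2 CPM with a small offset) for 13782 genes, each a point, with 6 lists in colour; dotted lines mark a log2 fold change of 1 and -1. Il13 (6.88), Il5 (7.57) and Retnla (8.06) stand near the top and the B lineage genes have a median of -4.71. On the T cell gene scale the median of all genes lies 1.08 lower, and the smaller positive values turn negative. Slc17a6, without counts under the ST2-/- label, moves less, from 10.03 to 9.52.

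The gene of ST2 sits in a cluster of IL-1 family receptor genes on chromosome 1 (40084692 to 40551707, GRCm38.p6), all of them higher in the libraries labelled Tbet-/-. In order along the chromosome the log2 fold changes were 1.45 for Il1r2, a decoy receptor, 0.37 for Il1r1, the IL-1 receptor, 1.78 for Il1rl2, the IL-36 receptor, 1.51 for Il1rl1, and 0.73 and 0.98 for Il18r1 and Il18rap, the IL-18 receptor chains. Il1r1, Il18r1 and Il18rap turned negative on the T cell gene scale (-0.71, -0.35 and -0.10), while the other 3 stayed positive. Il1r1 lost its call (0.29, adjusted p = 0.084) without the second Tbet-/- library. The cluster thus held no gene that was lower on the TMM scale. Over the 13 genes of the IL-1 family receptor list, which adds the adaptor Myd88 and the IRAK kinases, 11 were higher and 1, Traf6 (-0.79 ± 0.04), was lower, with a median of 0.47 that turned to -0.61 on the T cell gene scale.

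Genes that mark Treg cells had no common direction on the TMM scale. Foxp3 stood at 112, 117 and 95.2 CPM in the libraries labelled ST2-/- and at 118, 106 and 113 CPM in those labelled Tbet-/-. The groups overlapped, and the log2 fold change was 0.05 ± 0.06 (adjusted p = 0.42), which became -1.03 on the T cell gene scale. Ikzf2, the Treg factor Helios, stood at 529 ± 4.21 against 543 ± 8.87 CPM (SD, n = 3; 0.04 ± 0.03, not called, -1.04 on the T cell gene scale). Of the gate genes, Cd4 went from 120 ± 5.80 to 320.5 ± 6.57 CPM (1.42 ± 0.04) and Il2ra, the gene of CD25, from 264 ± 10.5 to 379 ± 9.54 CPM (0.52 ± 0.03, and -0.56 on the T cell gene scale). Il7r, the gene of CD127, was lower in the libraries labelled Tbet-/-, at 229 ± 5.10 against 379 ± 7.87 CPM (-0.72 ± 0.03, adjusted p = 2.2e-34). CD127- was part of the Tbet-/- gate, Il7r is also in the B precursor list, and its level had the same order of the 4 groups as that of Pax5, with WT levels of 475 ± 12.4 CPM without and 279 ± 5.33 CPM with tumor (SD, n = 3). The part of either in its level was not tested. The share of all genes with this order of groups was not counted. In 58.2% of genes the ST2-/- mean lay between the means of the WT groups. Over the Treg identity list of 18 genes, 7 were higher and 6 lower with a median of 0.10, and -0.98 on the T cell gene scale, where 17 were lower, near the 85.5% of all tested genes. Itgae, the gene of the integrin CD103, was among the lower ones at -0.99 ± 0.10.

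Most genes of the tissue Treg program were higher on the TMM scale. Of 22 members 20 were higher and 2 lower (26.4% and 27.4% of all tested genes), with a median of 1.08. On the T cell gene scale the median was 0.00, with 10 higher and 9 lower (1.76% and 85.5% of all). Il10, the suppressive cytokine, stood at 2.82, 2.91 and 4.48 CPM in the libraries labelled ST2-/- and at 16.3, 15.1 and 17.1 CPM in those labelled Tbet-/- (log2 fold change 2.24 ± 0.20, adjusted p = 1.1e-16). Areg, the repair factor amphiregulin, had 2, 8 and 6 counts against 75, 80 and 49, a ratio of 10.8 with a counting interval from 6.48 to 19.2. Both pairs of groups were separate. Pparg, a nuclear receptor of tissue Treg cells, went from 14.1 ± 3.98 to 41.9 ± 3.48 CPM (SD, n = 3; 1.57 ± 0.12), and the chemokine receptor Ccr8 from 8.63 ± 2.25 to 19.3 ± 1.04 CPM (1.16 ± 0.15). These kept their direction on the T cell gene scale (1.16 for Il10, 2.33 for Areg, 0.49 for Pparg and 0.08, not called, for Ccr8).

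The precursor factors Nfil3 and Batf and the cytokine subunit gene Ebi3 rose by less. Their log2 fold changes were 0.99 ± 0.12, 1.0 ± 0.12 and 0.86 ± 0.10 (adjusted p = 2e-11, 2e-11 and 4.4e-12), and on the T cell gene scale they were -0.10, -0.08 and -0.22. The 2 members that were lower were Klrg1, an inhibitory receptor of terminally activated cells, at 51.7 ± 2.84 against 43.6 ± 3.54 CPM (SD, n = 3; -0.25 ± 0.07, adjusted p = 0.0039), and Irf4. Without the first Tbet-/- library Klrg1 was no longer called (-0.18, adjusted p = 0.067). Irf4, which acts in effector Treg cells and also in B and plasma cells, stood at 609, 637 and 630.0 CPM in the libraries labelled ST2-/- and at 96.1, 91.4 and 95.7 CPM in those labelled Tbet-/- (-2.73 ± 0.03, adjusted p = 7e-76). Its level in no tumor WT was 816 ± 9.52 CPM (SD, n = 3), and that in tumor WT 269 ± 1.86 CPM. Pax5, a factor of the B lineage, had the same order of the 4 groups, and the part of B lineage transcripts in the level of Irf4 was not tested.

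Most cytotoxic effector genes were higher on the TMM scale. Of 18 tested members 16 were higher and none lower, with a median of 0.97 that turned to -0.11 on the T cell gene scale, where 5 were higher and 9 lower. Gzma, a granzyme, stood at 4.64, 6.59 and 6.98 CPM in the libraries labelled ST2-/- and at 35.5, 38.8 and 35.0 CPM in those labelled Tbet-/- (2.58 ± 0.14, adjusted p = 3.8e-29). Eomes, a T-box factor related to Tbet, stood at 13.7, 9.74 and 11.02 CPM against 48.3, 53.6 and 53.1 CPM (2.17 ± 0.12, adjusted p = 2.8e-29). No library of one group reached the other for either gene. Gzmb went from 47.7 ± 2.5 to 124 ± 3.73 CPM (SD, n = 3; 1.38 ± 0.06), Gzmk from 2.05 ± 1.06 to 14.0 ± 3.35 CPM (2.76 ± 0.23), and Prf1, the pore former perforin, from 6.53 ± 0.20 to 26.0 ± 1.60 CPM (1.99 ± 0.15). On the T cell gene scale all 5 stayed higher, from 0.30 for Gzmb to 1.68 for Gzmk. The granzyme genes are near copies of each other, and how the authors' counting placed shared reads is not given in the sources used here.

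Markers of CD8 T cells and most of those of NK cells, which also use these genes, were higher on the TMM scale. All 5 genes of the CD8 T cell list were higher with a median of 1.55 (0.47 on the T cell gene scale), and the summed level of the list was 36.4 to 42.4 CPM in the libraries labelled ST2-/- and 106 to 109 CPM in those labelled Tbet-/-. Cd8a itself stood at 1.98, 1.92 and 1.76 CPM against 6.44, 7.73 and 5.73 CPM, close to the 7.10 ± 0.43 CPM (SD, n = 3) of tumor WT. For the NK cell list 5 of 8 tested genes were higher and none lower, with a median of 0.87 that turned to -0.21 on the T cell gene scale, and its summed level went from 67.2 to 77.2 CPM up to 122 to 131 CPM. On the T cell gene scale 2 of its genes were higher and 3 lower. Klrb1c (-0.168 ± 0.115) was not called, and Ncr1 (0.381 ± 0.114) turned to -0.699 on the T cell gene scale. Neither list had a gene at 0 in all 3 libraries of a group. The part of these cells in the cytotoxic result was not tested.

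Most type 1 genes were higher on the TMM scale, as most type 2 genes were, whereas on the T cell gene scale the medians of both lists had opposite signs. Of the 15 members of the type 1 list 13 were higher and 2 lower, with a median of 0.97 that turned to -0.11 on the T cell gene scale, where 2 were higher and 8 lower. Ifng, the type 1 cytokine, went from 5.26 ± 0.80 to 12.2 ± 1.09 CPM (SD, n = 3; 1.22 ± 0.17, adjusted p = 4.1e-09). Cxcr3, a chemokine receptor under Tbet control, was lower at 46.6 ± 1.85 against 28.7 ± 2.90 CPM (-0.70 ± 0.08, adjusted p = 1.1e-11). The other lower member was Hlx, a homeobox factor, at -0.31 ± 0.12, whose call was lost without the first Tbet-/- library (-0.30, adjusted p = 0.051) and without the third ST2-/- library (-0.24, adjusted p = 0.10).

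Genes of T cell help and of checkpoint receptors were higher as well. Of 10 tested genes of the follicular and type 17 list 6 were higher and 2 lower, with a median of 0.82 that turned to -0.26 on the T cell gene scale. Il21, a cytokine of follicular helper cells, had 14, 10 and 8 counts in the libraries labelled ST2-/- and 276, 279 and 229 in those labelled Tbet-/- (4.36 ± 0.30, adjusted p = 7.7e-23). Cd40lg, which activates B cells, went from 3.69 ± 0.51 to 26.0 ± 3.76 CPM (SD, n = 3; 2.81 ± 0.17). The lower members were Cxcr5, the receptor that leads T and B cells to follicles, at -1.47 ± 0.17, and Bcl6, the follicular factor, at -0.46 ± 0.07. Of 10 tested checkpoint receptors 9 were higher and none lower, with a median of 0.77 that turned to -0.31, led by Lag3 from 9.17 ± 0.21 to 37.7 ± 4.22 CPM (2.04 ± 0.13) and Pdcd1 from 17.01 ± 3.95 to 61.6 ± 2.47 CPM (1.85 ± 0.12).

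Receptor lists with smaller shifts were mixed. In the chemokine receptor list 8 of 15 tested genes were higher (26.4% of all tested genes) and 4 lower, near the 27.4% of all. The median was 0.41 and turned to -0.67 on the T cell gene scale. The lower ones were Cxcr3, Cxcr5, Cxcr4, the receptor that retains cells in BM (-0.71 ± 0.03), and Ccr7, the lymph node homing receptor (-1.54 ± 0.13). Cxcr6, a receptor of tissue T cells, was higher (1.49 ± 0.07). The mean levels of Cxcr4, Cxcr5 and Ccr7 had the same order of the 4 groups as that of Pax5, with small differences between some groups for Cxcr5 and Ccr7. The part of B lineage transcripts in these levels was not tested, and the share of all genes with that order was not counted. Of 15 adhesion and egress genes 11 were higher and 3 lower, with a median of 0.55 that turned to -0.53. Of 14 genes of common gamma chain receptors and their signalling 10 were higher and 1, Il7r, lower, with a median of 0.31 that turned to -0.77. Of 8 TNF receptors 2 were higher, near the 26.4% of all tested genes, and none lower, with a median of 0.07 that turned to -1.01, and the 2 were Tnfrsf8, the gene of CD30, at 2.04 ± 0.25 and Tnfrsf4, the gene of OX40, at 0.21 ± 0.07, which turned to -0.87.

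**Figure D3:**
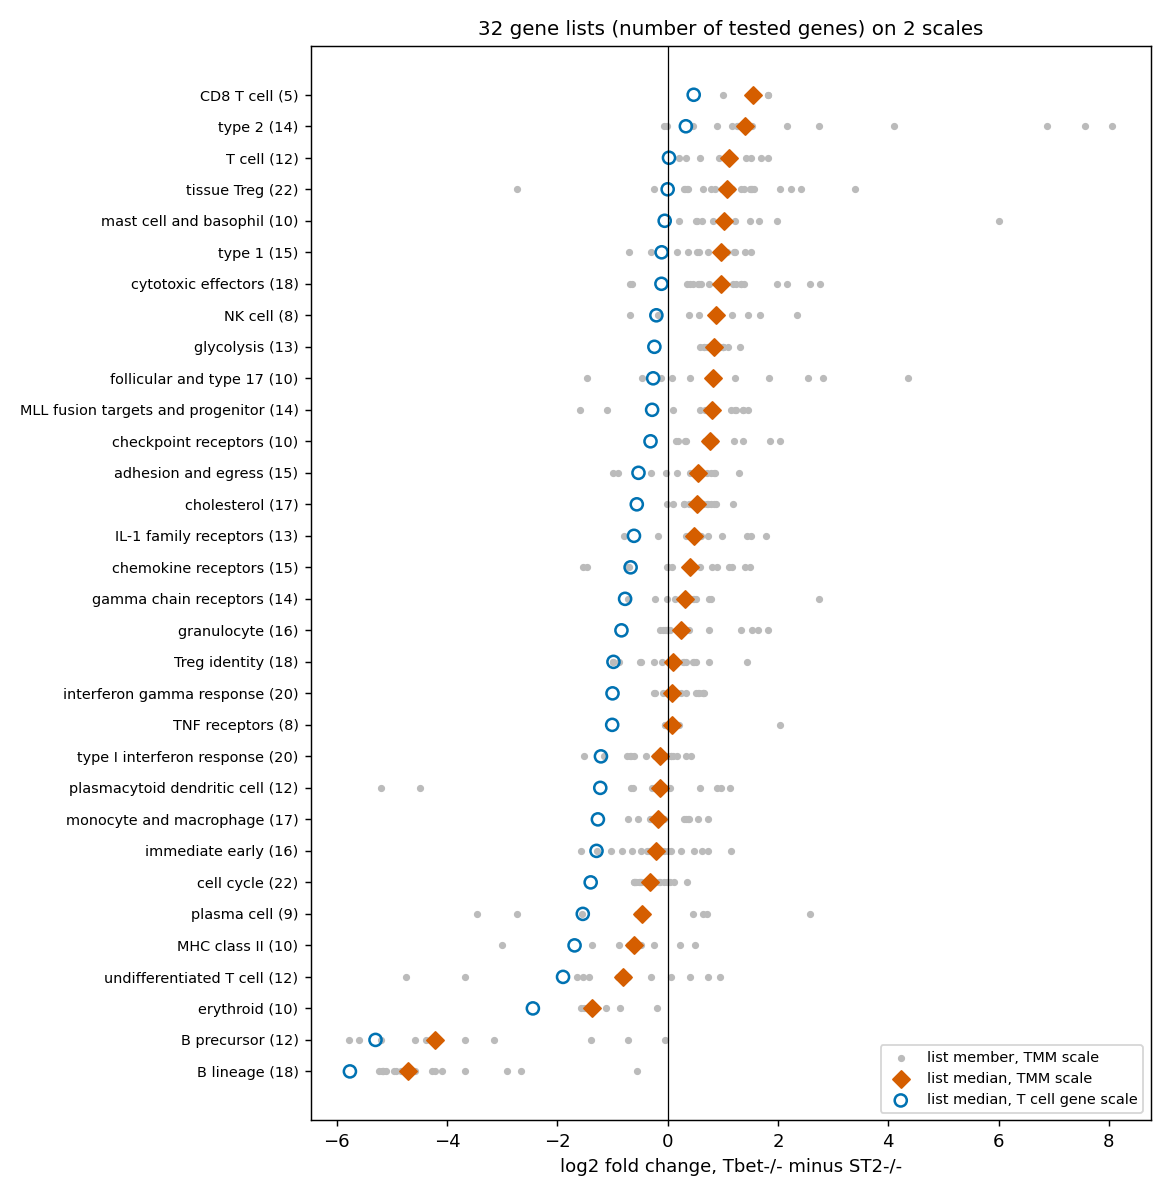
Log2 fold change (x axis) of the tested members of 32 gene lists (y axis) for the libraries labelled Tbet-/- over those labelled ST2-/-; grey points are genes and diamonds list medians on the TMM scale, and open circles are medians on the T cell gene scale. The type 2 (1.41 and 0.33) and CD8 T cell (1.55 and 0.47) lists have medians above 0 on both scales, the T cell list is held near 0 on the second by construction, the B lineage list stands at -4.71 and -5.76, and medians between 0 and 1.03 on the first scale are negative on the second.

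Among the lists examined, that of the B lineage had the lowest median. B cells arise in BM from precursors that carry the recombinase genes Rag1 and Rag2 and a surrogate light chain, made by Vpreb1 and Igll1, under the factors EBF1 and PAX5. All 18 genes of the B lineage list were lower in the libraries labelled Tbet-/-, with a median of -4.71 and -5.76 on the T cell gene scale. Pax5, the commitment factor of the B lineage, stood at 193, 181 and 182 CPM in the libraries labelled ST2-/- and at 5.19, 4.43 and 5.17 CPM in those labelled Tbet-/- (-5.24 ± 0.07, adjusted p = 3.1e-71). Rag1 stood at 707, 724 and 733 CPM against 12.8, 16.2 and 16.0 CPM (-5.59 ± 0.04, adjusted p = 5.6e-89). For neither gene did a library of one group come near the other group. No tumor WT held 252 ± 1.89 CPM of Pax5 and tumor WT 73.3 ± 1.49 CPM (SD, n = 3).

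Most B precursor genes were lower as well. Of 12 members 11 were lower and none higher, with a median of -4.22, and all 12 were lower on the T cell gene scale. The members did not end at 1 level, and Erg, an ETS factor of progenitors, at -0.05 ± 0.08, was the one not called. Igll1 went from 102 ± 1.69 to 4.30 ± 0.14 CPM (SD, n = 3; -4.57 ± 0.09) and Dntt, which adds bases at receptor gene joints, from 40.8 ± 3.41 to 1.10 ± 0.35 CPM (-5.20 ± 0.15). The summed level of the B lineage list was 3950 to 4030 CPM in the libraries labelled ST2-/- and 196 to 204 CPM in those labelled Tbet-/-, and that of the precursor list 2390 to 2470 against 506 to 517 CPM. No gene of either list was at 0 in all libraries of a group. Vpreb3, a relative of Vpreb1, stood at 231, 249 and 237 CPM against 6.50, 6.43 and 7.29 CPM. Its promoter is shown because it holds the octamer word ATTTGCAT (capitals) that OCT factors bind in B cell promoters. That word stood in 1.74% of promoters, among them the upstream window of Il1rl1. In the B lineage list 2 of 14 genes with a promoter held it, Blnk and Vpreb3, and in the B precursor list 0 of 10 did. Among all tested genes with a promoter, 170 of 10325 held it.
Vpreb3, chr10:75948050-75948349, plus strand: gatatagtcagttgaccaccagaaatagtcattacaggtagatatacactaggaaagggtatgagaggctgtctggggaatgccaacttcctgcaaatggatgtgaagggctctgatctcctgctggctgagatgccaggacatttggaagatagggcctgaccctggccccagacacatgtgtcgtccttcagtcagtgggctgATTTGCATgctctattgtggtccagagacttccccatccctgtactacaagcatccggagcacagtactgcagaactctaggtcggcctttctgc

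Plasma cell genes did not share that direction as a group. Of 9 tested members 4 were higher and 4 lower, with a median of -0.46 that became 0.09 without the second Tbet-/- library and 0.06 without the third ST2-/- library. Jchain, which links secreted immunoglobulin, stood at 49.8, 44.9 and 43.3 CPM in the libraries labelled ST2-/- and at 277, 278 and 270.0 CPM in those labelled Tbet-/- (2.58 ± 0.06, adjusted p = 2.3e-56, and 1.5 on the T cell gene scale). Mzb1, a chaperone of the same pathway, went from 28.5 ± 2.34 to 2.58 ± 0.41 CPM (SD, n = 3; -3.46 ± 0.15). MHC class II genes, which B cells and myeloid cells present antigen with, were mostly lower, 7 of 10 with 1 higher and a median of -0.61. Their decline was smaller than that of the B lineage genes, with H2-Ob, a gene of B cells, the lowest at -3.0 ± 0.10 and Cd74 at -0.70 ± 0.04.

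Most genes of undifferentiated T cells were lower. Of 12 members 8 were lower and 3 higher, with a median of -0.82. Bach2, which holds back effector differentiation of T cells and is also expressed in B cell precursors, stood at 1352, 1316 and 1332 CPM in the libraries labelled ST2-/- and at 47.99, 53.3 and 47.8 CPM in those labelled Tbet-/- (-4.74 ± 0.03, adjusted p = 2.2e-94). Id3 went from 11.4 ± 1.59 to 0.87 ± 0.42 CPM (SD, n = 3; -3.67 ± 0.25), Foxo1 had a log2 fold change of -1.65 ± 0.04 and Lef1 of -1.43 ± 0.05. These 4 genes act in B cell precursors as well as in T cells. Tcf7, the T cell factor TCF-1, was higher at 0.73 ± 0.08, which turned to -0.35 on the T cell gene scale. Bach2 levels were 1691 ± 8.93 CPM without tumor and 456 ± 7.21 CPM with tumor in WT (SD, n = 3), the same order of groups as for Pax5, and the part of B lineage transcripts in its level was not tested.

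The label of a Treg sort was checked against markers of the other cells of BM. On the deposited FPKM scale, which is per length and allows genes to be compared, S100a8, a calprotectin gene of neutrophils, lay at 4180 to 5450 FPKM in the libraries labelled ST2-/- and 6230 to 6500 FPKM in those labelled Tbet-/-. Foxp3 lay at 24.2 to 29.7 and 27 to 30 FPKM, and Cd3e, a CD3 chain, at 79.4 to 92.8 and 184 to 189 FPKM. S100a8 was thus far above Foxp3 in all 6 libraries. So were other granulocyte genes, such as Ngp at 3820 to 3970 and 4760 to 4860 FPKM and Ltf at 749 to 766 and 708 to 722 FPKM. Cxcr2, a chemokine receptor of neutrophils, lay nearer to Foxp3 but above it, at 34.7 to 36.8 and 34.9 to 35.4 FPKM. It was below Ikzf2 at 55.5 to 56.3 and 56.5 to 58.3 FPKM. Transcripts of granulocyte genes were thus present beside those of T cells in all 6 libraries. Of 16 granulocyte genes 9 were higher and 2 lower, with a median of 0.24 that turned to -0.84 on the T cell gene scale, and their summed level was 13100 to 13700 CPM against 16400 to 16500 CPM. The larger changes were in genes of the primary granules that immature cells make, Elane from 104 ± 4.51 to 367 ± 14.1 CPM (SD, n = 3; 1.81 ± 0.04) and Mpo, myeloperoxidase, at 1.64 ± 0.03, whereas Mmp9, of a later stage, at -0.01 ± 0.03, was not called. Elane stood at 39.6 ± 2.41 CPM in no tumor WT and at 186 ± 5.21 CPM in tumor WT (SD, n = 3). The part of the myeloid leukemia cells in the levels of these genes was not tested.

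**Figure D4:**
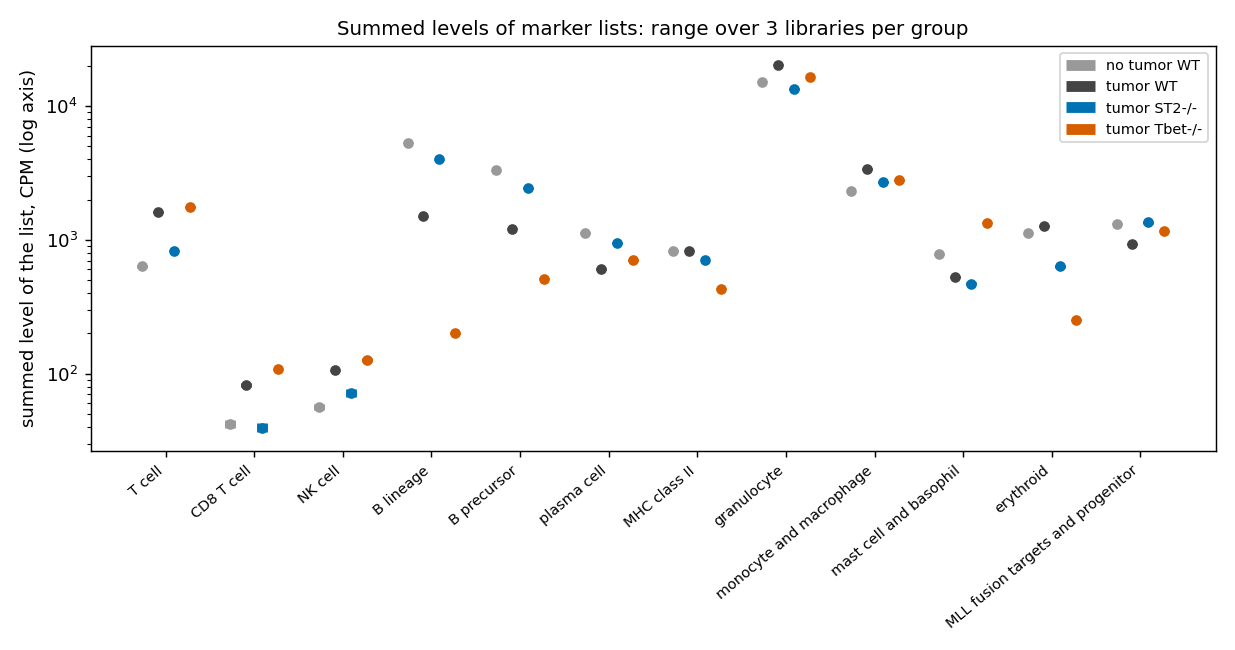
Summed level in CPM (y axis, log scale) of 12 marker lists (x axis) in the 4 groups; each symbol covers the range of the 3 libraries, which is narrower than the symbol in most cases. The B lineage sum is 3950 to 4030 CPM in the libraries labelled ST2-/- and 196 to 204 CPM in those labelled Tbet-/-, the T cell sum 818 to 846 and 1740 to 1780 CPM, and the granulocyte sum is 13100 CPM or more in all groups.

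Monocyte and macrophage genes were mixed, with 6 of 17 higher and 8 lower and a median of -0.18. Erythroid genes were lower, 9 of 10 tested with a median of -1.37, among them Slc4a1, the red cell anion exchanger, from 265 ± 12.8 to 92.2 ± 0.60 CPM (SD, n = 3; -1.52 ± 0.04). The plasmacytoid dendritic cell list had 3 of 12 genes higher and 4 lower, near the shares of all tested genes (26.4% and 27.4%), with a median of -0.14, which became 0.02 without the third ST2-/- library, and its largest declines, Ly6d and Dntt, are genes of B cell precursors too. Most genes that MLL fusions switch on and that mark progenitors were higher in the libraries labelled Tbet-/- on the TMM scale. Of 14 members 12 were higher and 2 lower, with a median of 0.80. On the T cell gene scale the median turned to -0.28, with 3 higher and 6 lower. The summed level of the list went the other way, from 1320 to 1380 CPM in the libraries labelled ST2-/- to 1150 to 1180 CPM in those labelled Tbet-/-. Meis1, a homeobox cofactor of MLL leukemia, stood at 43.6, 40.01 and 42.8 CPM in the libraries labelled ST2-/- and at 104, 107 and 114 CPM in those labelled Tbet-/- (1.36 ± 0.07, adjusted p = 4.6e-29). Hoxa9 went from 18.0 ± 0.91 to 42.4 ± 2.59 CPM (SD, n = 3; 1.24 ± 0.11), and no tumor WT held 1.22 ± 0.15 CPM of it. Both stayed positive on the T cell gene scale, at 0.28 and 0.16, the latter not called. The 2 lower members were Myb, a progenitor factor also active in B cell precursors, at -1.10 ± 0.03, and Zfp521 at -1.59 ± 0.46.

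Among programs of cell state, glycolysis and cholesterol synthesis were higher and the cell cycle lower. All 13 tested glycolysis genes were higher with a median of 0.84, which turned to -0.24 on the T cell gene scale, with Pgam1 (1.31 ± 0.11) the largest and still positive there (0.23). Of 17 cholesterol genes 15 were higher and none lower with a median of 0.52 that turned to -0.56. Of 22 cell cycle genes 16 were lower and 1 higher with a median of -0.32. Mki67, the proliferation antigen Ki-67, went from 2459 ± 54.0 to 1745 ± 14.6 CPM (SD, n = 3; -0.49 ± 0.02). The summed level of the list was 7020 to 7240 against 5350 to 5430 CPM, with 8850 to 9100 CPM in no tumor WT and 6500 to 6590 CPM in tumor WT. That is the order of groups seen for Pax5, and the part of B lineage cells in it was not tested. Immediate early genes, which respond to stimulation and to handling, had 5 of 16 higher, near the 26.4% of all tested genes, and 8 lower (27.4% of all) with a median of -0.21, Jun among the lower (-1.28 ± 0.06). Interferon gamma response genes had 10 of 20 higher and none lower with a median of 0.08 that turned to -1.0, and type I interferon response genes 2 of 20 higher and 8 lower with a median of -0.13. The antiviral gene Rsad2 was at -0.69 ± 0.08 and the guanylate-binding protein gene Gbp2 at 0.63 ± 0.05, which turned to -0.45.

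The 20 genes with the largest fold changes in each direction, among those at 5 CPM or more in the higher group and with no overlap between libraries, were mostly in none of the lists, which held 8 of the 20 in each direction. Of the higher genes 5 are in the type 2 list and of the lower genes 8 are in the B cell lists, a description only, since the lists were made with the large changes known. Outside the lists, the higher genes were led by Slc17a6, a vesicular glutamate transporter, with no count in the libraries labelled ST2-/- and 120 to 159 in each labelled Tbet-/-, at least 38.2-fold higher against the floor of 3 counts per library. Wisp1, a matricellular protein of WNT signalling, went from 3.14 ± 0.53 to 32.2 ± 3.16 CPM (SD, n = 3; 3.35 ± 0.17). Cftr, a chloride channel, had 34, 7 and 33 against 180, 243 and 150 counts, and Cyp11a1, the first enzyme of steroid synthesis, 8, 21 and 16 against 139, 134 and 110. Tmevpg1, a noncoding RNA beside Ifng, had 14, 11 and 6 against 74, 112 and 85 counts, and reads of overlapping genes cannot be told apart where strand was not used. All of these stayed higher on the T cell gene scale.

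On the lower side, Gfra1, a receptor for the GDNF family, stood at 121, 124 and 129 CPM in the libraries labelled ST2-/- and at 3.06, 3.54 and 3.18 CPM in those labelled Tbet-/- (-5.25 ± 0.09, adjusted p = 1.2e-64). Fmn2, an actin nucleator, had 327, 346 and 302 counts against 5, 5 and 4, a ratio of 82.4 with a counting interval from 48.9 to 151, and Klhl14, an adaptor of ubiquitin ligases expressed in B cells, had 327, 298 and 326 against 5, 5 and 4. Spib, an ETS factor of B cells, went from 464 ± 20.1 to 12.9 ± 0.28 CPM (SD, n = 3; -5.17 ± 0.05) and Chst3, a sulfotransferase, from 270.5 ± 8.14 to 7.6 ± 0.73 CPM (-5.16 ± 0.06). All 20 lower genes were lowest in the libraries labelled Tbet-/- among the 4 groups.

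**Figure D5:**
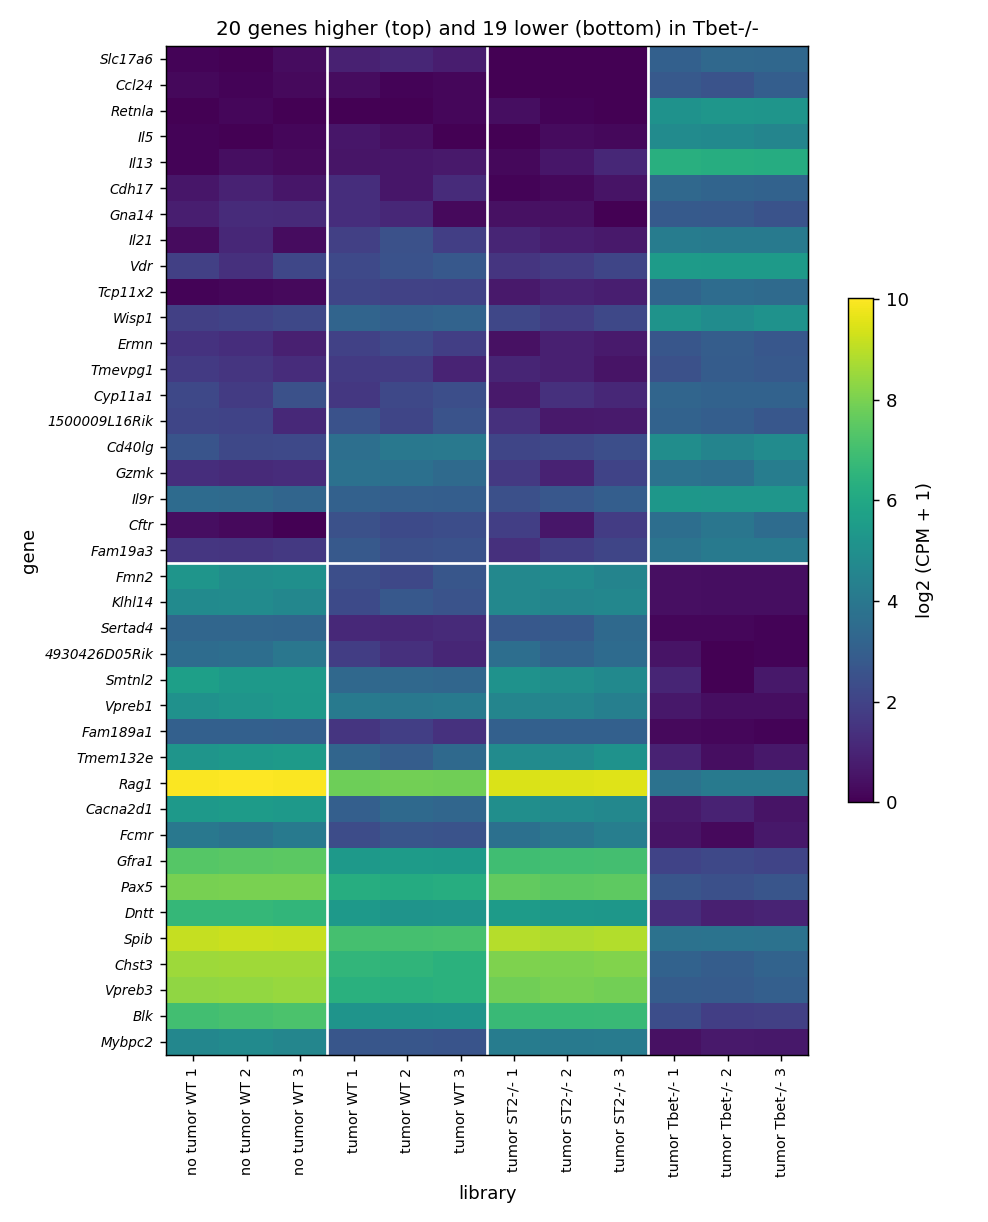
Level as log2 (CPM + 1), in colour, of the 20 genes most increased (top) and 19 of the 20 most decreased (bottom) in the libraries labelled Tbet-/- over those labelled ST2-/-, by gene (y axis) in the 12 libraries (x axis). The upper block is brightest in the 3 libraries labelled Tbet-/-, and in the lower block these 3 are darkest while those labelled ST2-/- lie between tumor WT and no tumor WT for Rag1, Pax5 and Spib.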

How the data were processed

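RNA of BM cells sorted as Treg cells was sequenced in 12 libraries, 3 in each of 4 groups taken from the labels. The deposited counts per gene were made by the authors with STAR and featureCounts on mm10, and the deposited log2 FPKM values equal the log2 CPM of these counts at prior count 2, minus a gene-specific constant, to within 5.7e-14. Whether the counting used strand and how it placed shared reads is not given in the sources used here. Counts were tested with edgeR 4.0.16 (quasi-likelihood, TMM, Benjamini-Hochberg adjustment over 13782 genes) in R 4.3.3, with all 12 libraries in 1 fit. A call is an adjusted p below 0.05, and the edgeR adjusted p is given throughout. The alternatives were DESeq2 1.42.0, limma 3.58.1 on the log2 FPKM values, other scalings, other filters, a replicate block and leaving out each library. Same-numbered replicates did not deviate together (r from -0.004 to 0.01), so the numbers were not taken as pairs. Replicates differed beyond sampling noise (chi-square per degree of freedom from 2.27 to 4.94). In simulated counts with 100 genes changed at each size among 13584, the fit called 69% of those changed by 0.5 and 91% of those changed by 1 on the log2 scale, beside 7 unchanged genes. The changed genes were drawn only above a minimum mean count, and far fewer were changed than were called in the data. These shares therefore do not cover genes with fewer counts. Every column matched a sample by its group name and replicate number. The column names of the libraries labelled ST2-/- and of tumor WT end in the same codes, so only the group names tell them apart.

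The lists and the genes described were chosen with earlier results of these data known. The genes named are Il1rl1, Tbx21, the gate genes, genes that the study discusses, members of 32 lists given beside the whole-list counts, and from the 20 largest changes in each direction at 5 CPM or more with no overlap between libraries. A few list members were not in the tested table, among them the hemoglobin genes, Il17a, Il17f, Il22, Gzmf and Tnfrsf17. GRCm38.p6, the RefSeq build of the promoters, is the build that mm10 names. Counting intervals and floors rest on counts and cover counting error only. Some genes are not reported here.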

Additional observations from a re-analysis of the deposited data

How the results depend on the processing

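The 712 higher and 1004 lower genes became 716 and 997 with RLE size factors, 716 and 1010 with DESeq2, 738 and 1032 without a filter, 678 and 969 at 1 CPM or more in 3 libraries, 670 and 886 in a fit of the 6 compared libraries, 686 and 958 without genes of other cells, ribosomal and hemoglobin genes, and 725 and 959 with limma. With a replicate block they were 706 and 988, and no named gene changed its call. Leaving out each library gave 666 to 796 higher and 965 to 1014 lower genes. The T cell gene scale gave 99 and 7691, so that higher genes made up 1.27% of these calls against 41.5% on the TMM scale.

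All reversals but those of the last sentences came with the T cell gene scale, which moved the median of all genes down by 1.08. The list medians were then -0.98 for Treg identity, 0.00 for tissue Treg, -0.11 for cytotoxic effectors and for type 1, -0.26 for follicular and type 17, -0.61 for IL-1 family receptors, -0.31 for checkpoint receptors, -1.01 for TNF receptors, -0.67 for chemokine receptors, -0.53 for adhesion and egress, -0.77 for gamma chain receptors, -0.21 for NK cells, -0.84 for granulocytes, -0.054 for mast cells and basophils, -0.28 for MLL fusion targets, -1.0 for the interferon gamma response, -0.24 for glycolysis and -0.56 for cholesterol. Genes that turned were Lck (-0.14), Cd2 (-0.88), Foxp3 (-1.03), Rad50 (-0.88), Il1r1 (-0.71), Il18r1 (-0.35), Il18rap (-0.10), Myd88 (-0.48), Ikzf2 (-1.04), Il2ra (-0.56), Nfil3 (-0.10), Batf (-0.08), Ebi3 (-0.22), Tnfrsf4 (-0.87), Tcf7 (-0.35), S100a8 (-0.69) and Gbp2 (-0.45). The plasma cell median was 0.005 without a filter and ran from -0.50 to 0.089 over the left-out libraries, and the plasmacytoid dendritic cell median from -0.23 to 0.016. Over the same fits Foxp3 ran from -0.03 to 0.11, Il4ra from -0.042 to 0.033 and Mmp9 from -0.03 to 0.003, none of them called. Depth limits the genes with few counts, such as Il4, Il5 and Areg in the libraries labelled ST2-/-.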

Other observations

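The ribosomal precursor RNA Rn45s took 7.07% to 7.44% of the counts under the ST2-/- label and 4.72% to 5.2% under the Tbet-/- label. The mean of the libraries labelled ST2-/- lay between the means of the 2 WT groups in 58.2% of genes, and that of the libraries labelled Tbet-/- in 31.1%. Of the 13782 genes tested, 7968 had an unadjusted p below 0.05, and the libraries of both groups did not overlap in 7769 genes, 6852 of which were called.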
